A study of Mus musculus with 53 samples.

Results

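Unipolar brush cells were sought in the mouse cerebellum at postnatal day 7 (P7) among single-cell barcodes by the transcripts of Eomes and Lmx1a, both transcription factors of that cell type. A barcode was a member when it held 1000 to 20000 UMIs (distinct transcript molecules) and at least 500 genes, had a summed Eomes and Lmx1a count of at least 3 UMIs with at least 1 from Eomes, and had fewer than 2 of the 4 GABAergic genes Gad1, Gad2, Pax2 and Slc32a1 detected. Of 62348 barcodes that passed the depth limits in 10 libraries, 80 (0.128%) were members, and 0 barcodes occurred in more than 1 library.

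Unipolar brush cells are excitatory interneurons of the granular layer that arise from the rhombic lip, like granule cells. They receive mossy fibres on a brush-like dendrite, relay the input to granule cells and are dense in the vestibular lobules IX and X. Cells of the OFF type, which glutamate inhibits, carry calretinin (Calb2) and depend on Grm2 and Plcb1, while cells of the ON type express Plcb4.

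The study deleted Insm1, a zinc finger repressor of neuroendocrine and neuronal progenitors, or Tead1 and Tead2 together, the DNA-binding partners of YAP. Insm1 mutants are Atoh1Cre; Insm1fl/fl and Tead1/2 mutants are Atoh1Cre with Tead1fl/fl and Tead2fl/fl, while controls carry the same floxed alleles with no Cre named in the labels. Atoh1Cre acts in cells of the Atoh1 lineage, above all granule cells. The title of the series places the question in the repression of muscle genes in the neural lineage. At P7 there were 2 controls and 3 mutants for each allele, each library from 1 unpooled cerebellum, and within every genotype group library 1 came from all lobules while the others lacked lobules IX and X. At postnatal day 2 (P2) single whole cerebella gave bulk RNA, with 4 controls and 4 mutants for Insm1 and 3 controls and 4 mutants for Tead1/2.

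The P7 libraries held 98416728 to 226631912 UMIs over all barcodes and 3409 to 8182 depth-filtered barcodes each. The members together held 875012 UMIs, with a median of 9735 UMIs per member (range 4599 to 19886). Sex was not balanced over the groups. Xist was expressed in the first Insm1 control, in Insm1 mutants 2 and 3, in each of the Tead1/2 controls, and in Tead1/2 mutant 3. In the granule lineage, defined by at least 2 of 5 granule genes, Insm1 stood at 60.7 and 64.3 CPM (counts scaled to a total of 1000000 per sum of barcodes) in its controls and at 18.2, 5.82 and 7.95 in its mutants, and Tead2 at 33.2 and 35.6 in its controls and 13.5, 9.35 and 9.93 in its mutants. GABAergic barcodes, a class outside that lineage, also fell. Their Insm1 went from 38.1 and 45.8 CPM in Insm1 controls to 20.4, 11.4 and 19.9 in mutants (log2 -1.30, edgeR FDR = 0.00228) and their Tead2 from 17.8 and 14.1 in Tead1/2 controls to 8.39, 4.94 and 4.22 (log2 -1.53, edgeR FDR = 0.00057). In barcodes of 10 to 99 UMIs, Insm1 stood at 49.9 and 57.4 against 18.9, 13.4 and 19.1 CPM. These barcodes were taken to hold mostly free RNA, which was not tested. In the granule lineage Tead1 went the other way, from 609 and 607 to 1292, 1501 and 1444 CPM. These counts run over whole genes and do not show whether the floxed exons were removed.

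The marker values that chose the members are given as a description. The members summed to 249 Eomes and 218 Lmx1a UMIs, and 1 member held at most 8 Eomes or 23 Lmx1a UMIs. Of the 80, 38 lay at the minimum sum of 3, while 216 barcodes lay just outside at a sum of 2 and 41 more had the sum but no Eomes. An Lmx1a UMI was present in 35 members and absent from 45. Among the 6844 barcodes with at least 2 GABAergic genes, 2 (0.0292%) met the marker sum, against 0.144% of the 55504 others. Another 126 barcodes above 20000 UMIs met the marker conditions and are outside the rule.

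The genes the rule did not use gave the label mixed support. Otx2, a homeobox factor of rhombic lip progeny, had a UMI in 45% of members and in 21.3% of granule-lineage barcodes, and the members stood higher in 10 of 10 libraries. Slc17a6, the vesicular glutamate transporter of immature and hindbrain excitatory neurons, was detected in 65.0% against 31.5% (9 of 10 libraries). On the other side Neurod1, a granule neuron factor, was detected in 91.3% of members and 90.3% of granule-lineage barcodes, and Cadps2, a factor of vesicle release, in 80.0% and 98.8%. Both genes are among the 5 that define the granule lineage here, so their shares in it are high by construction. Calb2 had a UMI in 6 of 80 members (7.5%) and Grm2 in 1. Otx2 is also a choroid plexus gene. Of the 6 genes in the choroid plexus list, 4 had a UMI in the members: Otx2 with 67, Folr1 with 4 and Kcnj13 and Clic6 with 1 each, while Ttr and Aqp1 had none. The summed level of that list had a median of 84.1 CPM over the libraries in members, 45.5 in the granule lineage and 17.1 in GABAergic barcodes, and its part in these shares was not tested. Of the 6 cerebellar nuclear genes, Meis2 had 1 UMI and Pou4f1 had 2, and Tbr1, Lhx9, Lhx2 and Sncg had none. A count of 0 allows a share of members with a UMI of up to 3.75%. The members' depth exceeds the granule-lineage medians of 5528 to 8543 UMIs in 9 of 10 libraries, and with each barcode thinned to 2000 UMIs the shares for Otx2 became 15.0% and 6.88% and for Slc17a6 30.0% and 14.3%. Members that carry at least 2 markers of another class numbered 59 of 80. The share of other depth-filtered barcodes that do so was not computed, so this count does not show more mixing than elsewhere. The members are called Eomes-selected cells here, because granule-lineage and mixed barcodes among them were not told apart.

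The cells with and without Lmx1a had different transcripts, shown as a description over pooled members because libraries contribute unequally. Eps8, an actin regulator of unipolar brush cells, was detected in 65.7% of the 35 cells with Lmx1a and 28.9% of the 45 without, and Calb2 in 17.1% and 0.0%. Granule genes ran the other way: Cadps2 stood at 699 and 2149 CPM and Neurod1 at 311 and 809 CPM. Cadps2 and Neurod1 were detected in 62.9% and 80.0% of cells with Lmx1a against 93.3% and 100% without. Barhl1, a homeobox gene of the granule lineage, did not follow them, with 71.4% and 42.2%. Of the 35 cells with Lmx1a, 24 came from Tead1/2 mutants, so Lmx1a and genotype cannot be told apart here. Cadps2 was detected in 12 of these 24. Among cells with Lmx1a it was detected in 6 of 6 in Insm1 controls, 4 of 4 in Insm1 mutants and 0 of 1 in Tead1/2 controls.

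**Figure D1:**
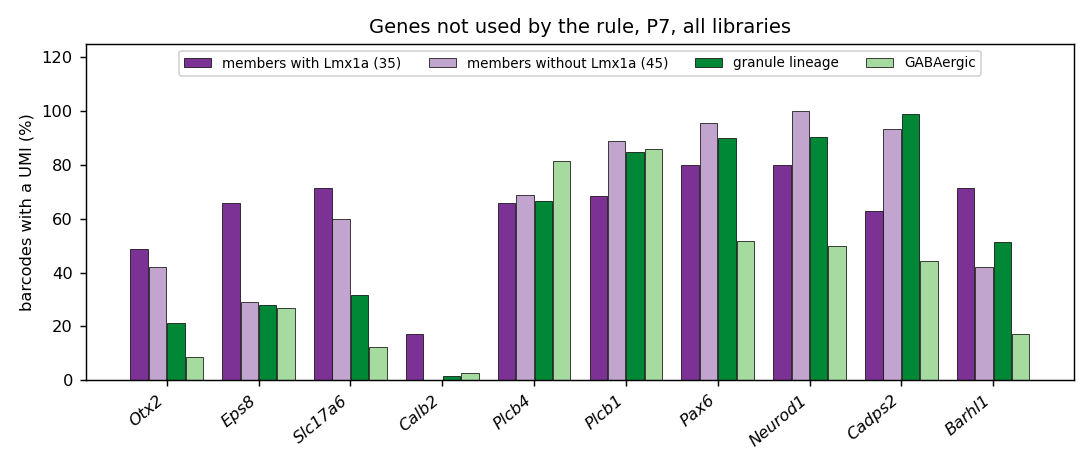
Percent of barcodes with at least 1 UMI of 10 genes that the rule did not use, pooled over all 10 P7 libraries, for the 35 members with Lmx1a, the 45 without, the granule lineage and GABAergic barcodes. Eps8 and Calb2 are most often detected in members with Lmx1a, and Cadps2 and Neurod1 in members without it and in the granule lineage. Of the 35 members with Lmx1a, 24 came from Tead1/2 mutants.

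Genes that lead in the Eomes-selected cells were ranked in the 4 control libraries against all other depth-filtered barcodes, with 5 CPM added. Unc5d, a netrin receptor, led with a mean log2 ratio of 1.74 (higher in 3 of 4 libraries), followed by the chemokine Cxcl12 with 1.66 (3 of 4), the GABA-B receptor auxiliary subunit Kctd16 with 1.64 (4 of 4) and the corepressor Tle2 with 1.39 (4 of 4). In the 6 mutant libraries Slc17a6 led with 2.82 (6 of 6), and the AMPA receptor auxiliary subunit Shisa9 with 2.23 (5 of 6) and Unc5d with 2.11 (5 of 6) were also near the top. Otx2os1, the transcript beside Otx2, was also among the 20 leading genes there with 1.56 (5 of 6). Unc5d and Tle2 stood in both lists.

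Whether the mutants hold fewer or more of these cells was asked with the share of depth-filtered barcodes per library. Members made up 0.147% and 0.154% of the Insm1 control libraries and 0.101%, 0.0494% and 0.0880% of the Insm1 mutants, from 12 and 10 members against 6, 3 and 3. The Insm1 groups did not overlap and the controls were higher. In Tead1/2 controls they made up 0.0507% and 0.0990% (4 and 5 members), and in Tead1/2 mutants 0.154%, 0.129% and 0.311% (10, 9 and 18 members). These groups did not overlap either, with the mutants higher and mutant 3 the highest of all libraries.

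Exact 95% binomial intervals were wide, for example 0.0102% to 0.144% in Insm1 mutant 2 and 0.185% to 0.491% in Tead1/2 mutant 3, and cover counting error only. The mean was 0.0793% ± 0.0266 (SD, n = 3) in Insm1 mutants and 0.150% ± 0.00530 (SD, n = 2) in their controls, a difference of -0.0711 percentage points (exact two-sided permutation p = 0.2, the smallest 2 against 3 libraries allow). The Tead1/2 mutants had 0.198% ± 0.0989 (SD, n = 3) and their controls 0.0748% ± 0.0342 (SD, n = 2), a difference of 0.123 points (exact permutation p = 0.2). With labels permuted within allele over all 10 libraries the common difference was 0.0260 points (exact permutation p = 0.74). Over the 4 planned share tests the Benjamini-Hochberg adjusted exact permutation values were 0.4, 0.4, 0.74 and 0.74.

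After the shares were seen, the mutant effects of both alleles were set against each other. The Insm1 effect minus the Tead1/2 effect was -0.194 percentage points, with an exact permutation p of 0.02, unadjusted and the smallest that 100 relabellings allow. Both alleles had already been seen to separate in opposite directions, which fixed that p in advance, so it adds no support. Per 100 GABAergic barcodes the same difference was -1.91 members (exact permutation p = 0.02, fixed in the same way). Split by Lmx1a, as a description since Lmx1a is part of the rule, it was -0.141 points for members with Lmx1a and -0.0531 for those without, and per 100 GABAergic barcodes -1.33 and -0.583. The Tead1/2 effect alone was 0.123 points for members with Lmx1a and 0.000175 for those without. Thinned to 2000 UMIs, the 10 members left were all in Tead1/2 libraries, so no Insm1 effect could be measured. With no upper depth limit the difference of effects was -0.263 (exact permutation p = 0.22). The 2 effects also moved with the rule's limits: with no upper depth limit the difference was 0.00975 points in Tead1/2 and -0.253 in Insm1, and with a marker sum of 2 it was -0.120 in Tead1/2. Without Tead1/2 mutant 3 the Tead1/2 difference was 0.0664 points and that of both alleles together -0.00236. The control libraries themselves differ, since the Insm1 controls stood above both Tead1/2 controls.

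Lmx1a counts are part of the rule, so the make-up of the group by Lmx1a is a description with no test. Lmx1a was present in 6 of 22 members of Insm1 controls (27.3%), 4 of 12 of Insm1 mutants (33.3%), 1 of 9 of Tead1/2 controls (11.1%) and 24 of 37 of Tead1/2 mutants (64.9%). By library, the Tead1/2 mutants held 8, 4 and 12 members with Lmx1a and their controls 1 and 0, while the Insm1 controls held 1 and 5 and the Insm1 mutants 2, 1 and 1.

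**Figure D2:**
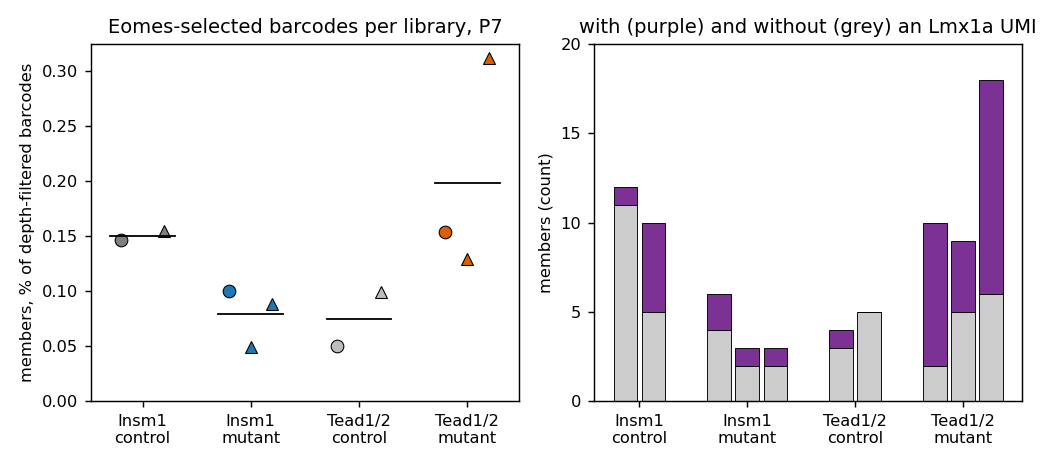
Left, members as a percent of depth-filtered barcodes in each P7 library, with circles for all lobules, triangles for libraries without lobules IX and X, and bars for group means; right, the count of members per library in the order of library numbers, split by the presence of an Lmx1a UMI. Tead1/2 mutant 3 holds 18 members, 12 of them with Lmx1a.

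Lobules IX and X hold many unipolar brush cells, so their removal was compared within each genotype. The library of all lobules had the lower share in Insm1 controls and Tead1/2 controls, the higher share in Insm1 mutants, and lay between the others in Tead1/2 mutants. Libraries without lobules IX and X averaged 0.138% ± 0.0919 (SD, n = 6) and those of all lobules 0.113% ± 0.0477 (SD, n = 4). The within-genotype difference was 0.0226 points (exact two-sided permutation p = 0.722, smallest possible 0.0556). With these libraries no difference of any size could have reached a p under 0.05.

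Gene levels of the members were compared as UMI sums per library, with 9 to 37 members and 113166 to 369620 UMIs per genotype group. Of 2731 genes with enough counts, edgeR's quasi-likelihood test called 0 (0.0%) in Insm1 mutants at a false discovery rate (FDR) under 0.05, and 136 (4.98%) had an unadjusted p under 0.05. DESeq2 called 0 as well. In Tead1/2 mutants 1 gene was called (0.0366%), with 260 (9.52%) at an unadjusted p under 0.05, and DESeq2 called 26. The difference between both effects gave 0 calls in edgeR and in DESeq2, with 134 (4.91%) at an unadjusted p under 0.05 in edgeR. Between the dissections edgeR called 0 genes (0.0%), 189 (6.92%) had an unadjusted p under 0.05, and DESeq2 called 8. Without the filter on low counts edgeR called 43 genes in Insm1 and 171 in Tead1/2 mutants.

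Ptn, which encodes the secreted growth factor pleiotrophin, was the called gene. Its level in the members was 1157 and 1173 CPM in Tead1/2 controls and 101, 152 and 127 CPM in Tead1/2 mutants. All 9 control members held a Ptn UMI, against 15 of 37 mutant members, and every mutant library lay far below both controls. The log2 fold change was -3.15 (SE 0.40, edgeR FDR = 0.0141). In the Insm1 libraries it stood at 1234 and 841 CPM in controls and at 675, 321 and 717 in mutants, which do not overlap either (log2 -0.85, SE 0.39, edgeR FDR = 0.907). The difference between the alleles was not called (log2 2.29, SE 0.57, edgeR FDR = 0.631).

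Ptn fell outside the members too. In granule-lineage sums the change was -1.21 in Tead1/2 and -0.80 in Insm1 mutants (log2, edgeR FDR = 2.9e-07 and 1.15e-05), and in GABAergic sums -0.79 and -0.73 (edgeR FDR = 0.00155 and 0.00325). Of all genes, 28.2% and 20.9% were called in the granule lineage and 9.86% and 8.75% in GABAergic sums. The fall in Tead1/2 members exceeded that in GABAergic barcodes of the same libraries by 2.23 on the log2 scale (SE 0.48, edgeR FDR = 0.00123). This difference was not called without Tead1/2 control 2 (log2 -1.98, edgeR FDR = 0.0861) or with members of at most 10000 UMIs (log2 -2.12, edgeR FDR = 1.0). The call in the members alone was lost with a term for sex (FDR = 0.166) and without members above 10000 UMIs (FDR = 0.0771). It was also lost without Tead1/2 control 1, mutant 1 or mutant 3 (FDR = 0.0698, 0.0817 and 0.150), at log2 values of -3.02 to -3.20 in all of these, and without members that carry markers of other classes (log2 -0.22, SE 1.65, FDR = 0.951). That last fit kept 1 member of Tead1/2 control 1 and none of control 2, so it bears little on Ptn.

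**Figure D3:**
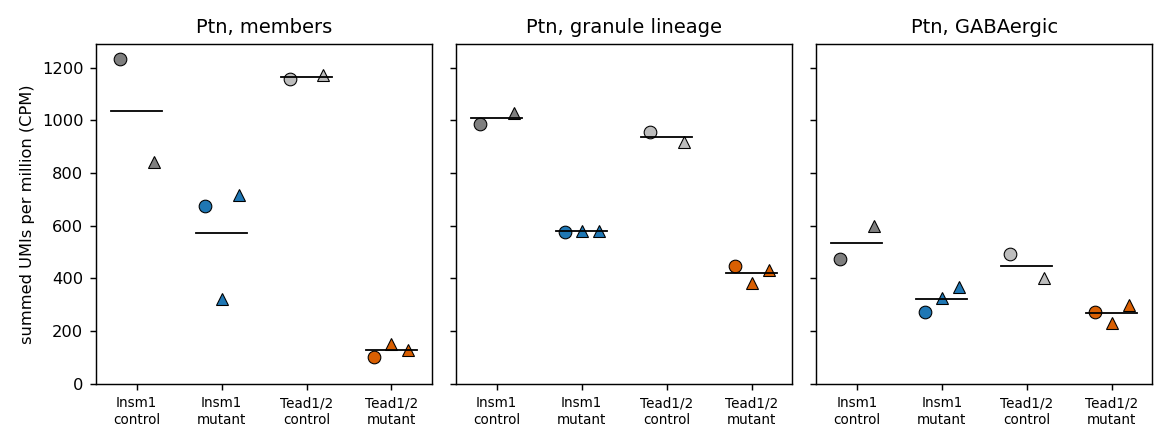
Ptn in CPM of summed UMIs per P7 library for members, granule lineage and GABAergic barcodes, with circles for all lobules, triangles for libraries without lobules IX and X, and bars for group means. Members of Tead1/2 mutants lie between 101 and 152 CPM and those of their controls at 1157 and 1173.

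No gene of the unipolar brush cell lists was called in the members by edgeR or DESeq2. Of 12 such genes besides the rule's own, 8 were tested. Their median log2 change was 0.29 in Insm1 and 0.82 in Tead1/2 mutants, beside -0.01 and 0.03 over all tested genes. Eps8 stood at 63.1 and 0 CPM in Tead1/2 controls and 80.6, 133 and 581 in mutants, and the mutants lay above both controls (log2 3.32, SE 1.56, edgeR FDR = 0.527). Of 24 glutamate receptor genes 15 were tested, with median log2 changes of -0.14 and 0.79, and of 18 inhibitory receptor genes 7, with 0.07 and 0.66. In the members' fit edgeR called no gene of either list. DESeq2 called 2 glutamate receptor genes lower in Tead1/2 mutants, against the sign of the list's median, where it called 8 of 1116 genes with an adjusted p lower (0.717%). Gria4, an AMPA receptor subunit, stood at 1452 and 1143 CPM in Tead1/2 controls and 564, 218 and 115 in mutants (log2 -2.10, DESeq2 FDR = 0.0240, edgeR FDR = 0.213). Grik2, a kainate receptor subunit, stood at 5766 and 6535 CPM against 1663, 2631 and 2683 (log2 -1.37, DESeq2 FDR = 0.000373, edgeR FDR = 0.123). The groups did not overlap for either gene. When the effect was tested against that in GABAergic barcodes of the same libraries, 3 of 23 tested glutamate and 2 of 13 tested inhibitory receptor genes were higher in Tead1/2, where 0.608% of all 13493 genes were. In Insm1 1 of the 23 glutamate receptor genes was lower, beside 0.141% of all genes. The granule-lineage list had 7 of 14 genes tested and 0 called by edgeR, although Cadps2 stood at log2 -0.90 (SE 0.50, edgeR FDR = 0.907) in Insm1 and -1.79 (SE 0.50, edgeR FDR = 0.241) in Tead1/2 mutants. DESeq2 called Cadps2 lower in Tead1/2 mutants (log2 -1.81, FDR = 0.0394). Cadps2 stood at 699 CPM in members with Lmx1a and 2149 in those without. Lmx1a was present in 24 of 37 members of Tead1/2 mutants and 1 of 9 of their controls. The part of this make-up in the changes of gene levels was not tested.

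The targeted genes were sparse in the members, with 58 UMIs of Insm1, 504 of Tead1 and 30 of Tead2 in all. Insm1 stood at 77.6 and 36.9 CPM in its controls and at 127, 0 and 0 in its mutants, so that the groups overlapped. Tead1 stood at 379 and 442 CPM in Tead1/2 controls and 554, 1130 and 533 in mutants, higher in all 3, as in the granule lineage (log2 0.87, edgeR FDR = 0.565). Tead2 had 0 UMIs in control members and 0, 38.0 and 6.06 CPM in mutants. These levels do not tell which members had undergone recombination.

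Transcripts of skeletal muscle genes, which the series title concerns, were present in the members at a low level. Over 60 skeletal muscle genes the members' summed level was 213 to 295 CPM in the 4 controls, 549 to 799 in Insm1 mutants and 945 to 1330 in Tead1/2 mutants. Every mutant library lay above every control. The granule lineage of the same libraries stood at 347 to 398 CPM in controls, 2338 to 3271 in Insm1 mutants and 4594 to 6369 in Tead1/2 mutants. GABAergic barcodes stood at 479 to 491, 2316 to 3518 and 3843 to 5337 CPM. Barcodes of 10 to 99 UMIs had 1628 to 3485 CPM in controls, 9167 to 10261 in Insm1 and 17198 to 26234 in Tead1/2 mutants. The members lay below both classes in 10 of 10 libraries, at 61.4% to 83.7% of the granule level in controls and 14.9% to 31.0% in mutants.

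Ttn, the giant sarcomere protein titin, was detected in 33 of 80 members (41.3%), in 35.1% of granule-lineage and 39.1% of GABAergic barcodes. It stood at 194 to 433 CPM in members of Tead1/2 mutants and 7.37 to 63.1 CPM in members of the 4 control libraries. In Insm1 mutants it stood at 0, 32.1 and 27.6 CPM, which overlapped the 28.2 and 7.37 of their controls, unlike the summed muscle level. By comparison, the granule lineage of Tead1/2 mutants had 2299 to 3390. Single barcodes held much of the members' Ttn: 32 of 43 Ttn UMIs in Tead1/2 mutant 1, 11 of 27 in mutant 2 and 22 of 32 in mutant 3. Without the member with most Ttn in each library, the Tead1/2 mutants stood at 135, 171 and 65.0 CPM, and their controls at 34.2 and 0. In the members' fit its log2 change in Tead1/2 mutants was 3.00 (edgeR FDR = 0.189), and 0 of the 3 tested muscle genes were called by edgeR. Myog, a myogenic regulator, had a UMI in 5 members (6.25%), close to the 5.46% of GABAergic barcodes, both pooled over libraries. The members' share was above the GABAergic share in 3 of 10 libraries. It was thus not told apart from that background.

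**Figure D4:**
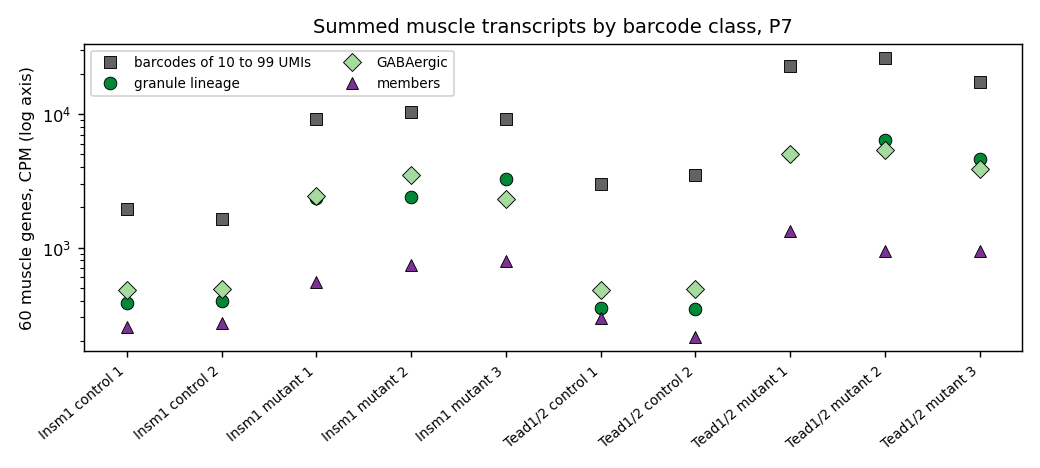
Summed level of 60 skeletal muscle genes in CPM, on a log axis, for members, granule lineage, GABAergic barcodes and barcodes of 10 to 99 UMIs in each of the 10 P7 libraries. Members are lowest in every library, at 213 to 295 CPM in controls and 945 to 1330 CPM in Tead1/2 mutants.

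Each mutant effect in the members was also tested against that in GABAergic barcodes of the same libraries. RNA shared within a library need not cancel in this difference. For muscle genes the members held 43.4% to 61.6% of the GABAergic level in controls and 17.8% to 34.5% in mutants. The fit takes 1 estimate of spread per gene from the member and GABAergic sums together. Its FDRs therefore do not measure the spread of the members alone between libraries. For Insm1, 27 of 13493 genes (0.2%) were called, 8 higher (0.0593%) and 19 lower (0.141%). Of the genes named by the rule, Lhfp rose from 7.05 and 7.37 CPM in control members to 317, 386 and 551 in mutants, where it had 47 UMIs in 6 of 12 members (log2 difference of effects 4.88, SE 0.79, edgeR FDR = 2.48e-06). Members of the Tead1/2 controls held Lhfp at 253 and 15.2 CPM, so a low level was not general to control members. In the granule lineage Lhfp stood at 89.97 and 85.4 CPM in controls and 495, 517 and 548 in mutants. Adamts18, a secreted metalloprotease, rose from 7.05 and 14.7 to 63.3, 418 and 193 CPM (3.59, SE 0.80, edgeR FDR = 0.00643), with 0 in members of both Tead1/2 controls. Angpt1, the ligand of the receptor Tek, followed with 2.48 (SE 0.50, edgeR FDR = 0.000937), although its groups overlap within the members and 71 of its 170 UMIs in the Insm1 libraries came from 1 member. Without members that carry markers of other classes, the Insm1 mutants keep 2 members, both in mutant 1, so that fit says nothing of the stability of these calls. With members of at most 10000 UMIs, 2 genes were called.

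Genes at 0 UMIs in all 12 members of Insm1 mutants made up most of the named falls. Of these, Pdzrn4 and Tmem132d were also at 0 in both Tead1/2 controls' members, and Tnr at 0 and 15.2 CPM. Sgcz and Dpp10, with 1 UMI each in Insm1 mutant members, stood at 0 and 30.5 and at 21.04 and 0 CPM in the Tead1/2 controls. A low level is thus not particular to Insm1 mutants for these 5 genes. With 3 counts per group as the floor, Grik1, a kainate receptor subunit, was at least 5.65-fold lower than in controls, which had 113 and 184 CPM. The extracellular matrix protein Tnr was at least 5.24-fold lower (183 and 88.5 CPM in controls), Tmem132d 4.96-fold, Itih5 4.41-fold and Pdzrn4 3.17-fold, each a lower bound for the pooled counts (edgeR FDR from 3.42e-06 to 0.0244 in the test against GABAergic barcodes). Few of the 22 control members held these UMIs: 7 for Pdzrn4, 6 each for Grik1, Tnr and Tmem132d, and 3 for Itih5. The bounds therefore do not extend to an effect of genotype. Pdzrn4 stood the other way in the granule lineage, at 29.6 and 31.95 CPM in controls and 183, 244 and 225 in mutants. In GABAergic barcodes, the reference of the test, Pdzrn4 rose from 20.03 and 30.6 CPM in controls to 108, 120 and 118 in mutants. Tmem132d rose there from 16.9 and 45.8 to 72.6, 87.3 and 86.9 CPM. Both rises enter the tested differences. The FDRs of Pdzrn4 and Tmem132d are thus not those of a fall in members alone. For Grik1, Tnr and Itih5 the GABAergic groups overlapped. Of the UMIs in the Insm1 libraries, a single member of Insm1 control 1 held 57.9% for Tnr and 68.8% for Itih5. For Col4a1 and Adamts12, at least 3.86-fold lower, the shares of 1 member of that library were 92.9% and 96.4%, and for Igf2 1 member held 75.9%. Without Insm1 mutant 1, which raises the floor, the bounds were 3.32 for Grik1, 3.08 for Tnr, 2.91 for Tmem132d, 2.59 for Itih5, 2.27 for Col4a1 and Adamts12 and 1.86 for Pdzrn4. Without Insm1 control 1 they were 3.38 for Tnr, 2.26 for Itih5 and 8.18 for Tmem132d, and Col4a1 and Adamts12 lay under the floor. Without control 2 they were 1.89 for Tmem132d and 7.28 for Col4a1 and Adamts12. Sgcz and Dpp10 were at 81 and 49 UMIs in 22 control members against 1 UMI each in 12 mutant members, and the Sgcz effect was 7.51 with members of at most 10000 UMIs.

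For Tead1/2, 116 genes (0.86%) were called, 82 higher (0.608%) and 34 lower (0.252%). The genes named as rises had 0 UMIs in all 9 control members. With 3 counts per group as the floor, the postsynaptic adhesion protein Lrrtm4 was at least 16.9-fold higher in mutants and the Rac regulator Chn2 13.4-fold. The axon guidance ligand Slit1 was at least 10.0-fold, the glutamate receptor Grm8 9.90-fold and Hs3st4 9.70-fold higher. All bounds here are for pooled counts and do not extend to an effect of genotype. Few of the 37 mutant members held these UMIs: 16 for Chn2, 11 for Lrrtm4, 9 for Grm8, 8 for Slit1 and 7 for Hs3st4. Nebl was at least 8.88-fold, Ptpre 6.33-fold, the kainate receptor subunit Grik3 5.92-fold and Rtl4 4.49-fold higher (edgeR FDR from 9.36e-08 to 0.0453 in the test against GABAergic barcodes). Grik3 was alike in members of all mutants, at 141, 152 and 170 CPM, as was Slit1 with 292, 237 and 267. In the granule lineage Chn2 was higher too, at 40.01 and 45.6 CPM in controls and 164, 179 and 144 in mutants, and Nebl at 50.3 and 71.4 against 318, 382 and 331. Besides Grik3, 6 of the named rises were highest in members of mutant 3. Lrrtm4 stood at 272, 28.5 and 824 CPM, Chn2 at 101, 123 and 654, Grm8 at 252, 9.50 and 430, Nebl at 111, 66.5 and 418, Rtl4 at 50.4, 57.0 and 199.9, and Hs3st4 at 0, 19 and 563. Without mutant 3 the bounds were 5.53 for Lrrtm4, 4.80 for Grm8, 4.24 for Chn2, 3.32 for Nebl and 2.03 for Rtl4, Hs3st4 lay under the floor, and 64 genes were called. With members of at most 10000 UMIs, 11 genes were called. The floor also rests on few control members, and the 9 bounds were 2.60 to 9.83 without Tead1/2 control 1 and 1.89 to 7.11 without control 2.

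The same genes had UMIs in Insm1 control members, above all in control 2. In Insm1 controls 1 and 2 Lrrtm4 stood at 141 and 1076 CPM, Chn2 at 21.2 and 428 and Grm8 at 7.05 and 413. Nebl and Hs3st4 were at 0 in control 1 and at 295 and 280 CPM in control 2, while Slit1 was at 0 in both. The absence from control members therefore holds for the Tead1/2 controls and not for all controls, apart from Slit1.

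Members with UMIs of these genes mostly held Lmx1a too. In the Tead1/2 libraries all 8 members with a Slit1 UMI, 10 of 11 with Lrrtm4 and 11 of 12 with Ptpre also held Lmx1a. So did 12 of 16 with Chn2, 8 of 9 with Grm8 and 7 of 8 with Rtl4. For Grik3 it was 6 of 8, for Hs3st4 5 of 7 and for Nebl 7 of 11, the last 2 near the share of all mutant members. Of all members there, 24 of 37 in mutants and 1 of 9 in controls held Lmx1a. The part of this unequal Lmx1a share in the result was not tested.

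Most of the named falls in Tead1/2 rested on 1 barcode. Ptgds, a prostaglandin synthase of the meninges, stood at 1326 CPM in Tead1/2 control 1 and 0 in control 2 and in every mutant library. Slc6a20a, Slc13a4, Lepr, Cped1, 9530026P05Rik and the collagens Col1a1 and Col1a2 showed the same single library, and within the Tead1/2 libraries 100% of the UMIs of each of these 8 genes came from 1 member, a barcode of 14781 UMIs with 3 Eomes and no Lmx1a UMIs. That barcode held 62 of the 238 UMIs of the meningeal list, and a barcode of Insm1 control 1 held 103. Members of Insm1 control 1 also held collagen UMIs, with Col1a1 at 176, Col1a2 at 183 and Col3a1 at 289 CPM. Of the Tead1/2 libraries' UMIs, 1 member held 93.8% for Col3a1 and 58.3% for Gpc3. Gpc3, a cell surface proteoglycan, stood at 147 and 76.2 CPM in both Tead1/2 controls and at 0 in the mutants. In the granule lineage it was at 105 and 87.4 CPM in controls and 50.8, 35.1 and 50.5 in mutants. Without Tead1/2 control 1, 46 genes were called, 43 higher and 3 lower. Without members that carry markers of other classes, Tead1/2 control 1 keeps 1 member and control 2 none, so that these calls could not be checked in that way.

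The genes of unipolar brush cells were also read in sums over all depth-filtered P7 barcodes, a comparison added after the members were seen. In such sums, as in bulk tissue, fewer cells of a type and less RNA per cell cannot be told apart. Eomes stood at 9.99 and 9.18 CPM in Insm1 controls and 5.50, 3.20 and 3.56 in mutants, and at 6.28 and 7.87 in Tead1/2 controls and 3.55, 3.20 and 4.50 in mutants. No mutant library reached its controls in either allele. It fell by 1.28 on the log2 scale in Insm1 (SE 0.22, edgeR FDR = 0.00106) and by 1.01 in Tead1/2 (SE 0.22, edgeR FDR = 0.00315). Barcodes of 10 to 99 UMIs showed 11.2 and 9.10 against 5.99, 3.65 and 3.20 CPM, and 6.39 and 7.91 against 3.56, 2.87 and 6.08, where Tead1/2 mutant 3 lay near its controls. Lmx1a was not called (log2 -1.15, edgeR FDR = 0.145, and 0.33, edgeR FDR = 0.583). Eomes thus fell in Tead1/2 mutants over all barcodes, where the share of members stood higher (exact permutation p = 0.2).

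Of the 14 listed genes, 5 rose and 7 fell in Insm1 mutants and 4 rose and 7 fell in Tead1/2 mutants, beside 29.4% and 42.9% of 21023 genes called in either direction (16.2% higher and 13.2% lower in Insm1, 23.8% and 19.1% in Tead1/2). Eps8 (log2 1.39 and 1.07) and Calb2 (1.30 and 1.18) rose in Insm1 and Tead1/2, and Grm2 (-2.92 and -1.99), Slc17a6 (-1.55 and -2.23), Scg2 (-1.84 and -2.07), Plcb1 (-0.97 and -1.12) and Pax6 (-0.58 and -0.91) fell, at edgeR FDRs of at most 0.00471. In the granule lineage Eps8 (2.07 and 2.00) and Calb2 (2.06 and 2.15) rose as well, and Slc17a6 fell (-1.16 and -1.75). Eps8, Calb2 and Slc17a6 thus changed at P7 in barcodes outside the members, while no listed gene was called in the members themselves. Between dissections 0 of 21023 genes (0.0%) were called.

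P2 bulk RNA gave replicates of another age that the rule did not use. The targeted genes were read first. Insm1 stood at 30.8, 30.9, 55.9 and 74.1 CPM in its controls and 10.4, 8.72, 16.4 and 15.1 in its mutants. Tead2 stood at 24.3, 25.8 and 22.4 CPM in its controls and at 18.8, 19.1 and 17.5 in mutants 1 to 3, but at 24.9 in the library labelled Tead1/2 mutant 4, which goes against that label. Tead1 overlapped between the groups. Results for Tead1/2 at P2 are therefore given with and without the library labelled mutant 4. Among the Tead1/2 mutants only that library expressed Xist (669 CPM), and among the controls only control 2 did (715 CPM). Leaving it out therefore also leaves only mutants without Xist expression, and the part of sex was not tested. The libraries held 28066643 to 64518751 expected counts, and all 14 genes of the list were tested in both alleles. Eomes stood at 38.1, 34.0, 34.1 and 37.2 CPM in Insm1 controls and 33.1, 36.02, 44.3 and 35.8 in mutants, and at 25.9, 34.4 and 36.7 in Tead1/2 controls and 28.1, 39.3, 29.4 and 27.8 in mutants. The groups overlapped in both alleles (log2 0.08, SE 0.09, edgeR FDR = 0.822, and log2 -0.06, SE 0.14, edgeR FDR = 0.840). Lmx1a overlapped only at the edges in Insm1, with 5.74 to 6.79 CPM in controls and 6.74 to 8.69 in mutants (log2 0.30, SE 0.11, edgeR FDR = 0.426), and throughout in Tead1/2 (log2 -0.02, SE 0.13, edgeR FDR = 0.961). When the library labelled Tead1/2 mutant 4 was left out, the log2 changes were -0.02 for Eomes (edgeR FDR = 0.961), -0.06 for Lmx1a (edgeR FDR = 0.860) and -0.07 for Calb2 (edgeR FDR = 0.713).

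Calb2 was the 1 listed gene called at P2, in Insm1 mutants, where 135 of 19582 genes (0.689%) were called. It stood at 16.9, 18.3, 18.5 and 18.9 CPM in controls and 23.4, 25.1, 22.6 and 23.3 in mutants, without overlap (log2 0.40, SE 0.07, edgeR FDR = 0.0246). All 4 controls but only mutants 1 and 2 expressed Xist, and mutants 1 and 2 at 23.4 and 25.1 CPM lay above all controls. The call was lost without any one of the controls or of mutants 2, 3 and 4 (edgeR FDR of 0.0549 to 0.0930), while the log2 change stayed at 0.36 to 0.42 whichever library was left out. In Tead1/2 edgeR called 0 of the 14 and 0 of 20247 genes (0.0%), with 4 listed genes and 4052 of all genes (20%) at an unadjusted p under 0.05. DESeq2 called 4 of the 14 and 1026 of all genes (6.28% of those with an adjusted p). Leaving out the library with control-like Tead2 left only mutants without Xist expression. In that fit edgeR called 3 of the 14 and 646 of 20234 genes (3.19%). The 3 were Slc17a7, a vesicular glutamate transporter (log2 0.89), Plcb1 (-0.60) and Slc17a6 (-0.50). In that library Slc17a7 stood at 11.2 CPM, Plcb1 at 77.6 and Slc17a6 at 58.3, within the range of the controls, where the other mutants had 19.7 to 20.8, 48.8 to 57.9 and 39.9 to 49.9. The median log2 change of the list was 0.08 in Insm1 and -0.06 in Tead1/2 (-0.04 without that library), beside 0.01 and -0.01 over all genes (-0.01 without it).

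**Figure D5:**
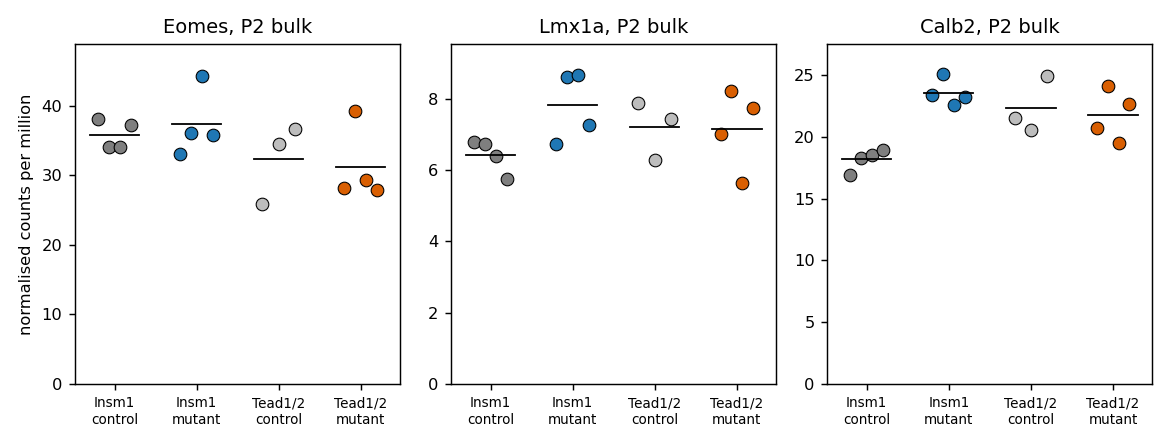
Eomes, Lmx1a and Calb2 in normalised CPM in the P2 bulk libraries, 1 point per pup with bars for group means. Calb2 lies at 16.9 to 18.9 in Insm1 controls and 22.6 to 25.1 in Insm1 mutants, and the Eomes groups overlap.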

How the data were processed

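For P7 (Parse Evercode single-cell kit, 10 libraries) the authors deposited raw UMI counts per barcode. For P2 they deposited RSEM expected counts per gene, here rounded, with samples matched by column name. The submitters' processing notes list STAR 2.7.9a, RSEM 1.3.3 and Seurat 4.4.0 and the builds GRCm38.p6 and mm10, whereas the P7 gene tables name GRCm39.

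Member UMIs were summed per library and fitted with edgeR 4.0.16 (R 4.3.3; quasi-likelihood, TMM, filterByExpr, Benjamini-Hochberg FDR under 0.05) in 4 genotype groups. For member against GABAergic effects, 20 sums were fitted with library as block and 1 estimate of spread per gene over both classes. CPM are counts scaled to 1000000 per sum, at P2 with TMM. DESeq2 1.42.0 was an alternative. Shares were compared by exact two-sided permutation over libraries. No doublet caller was run. Instead, members with at least 2 detected markers of another class were left out in an alternative. GABAergic barcodes have at least 2 of the 4 genes, and granule-lineage barcodes at least 2 of Atoh1, Barhl1, Neurod1, Cadps2 and Gabra6 with fewer than 2 GABAergic genes. Both lack Eomes and Lmx1a UMIs.

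Named genes were called, reached a mean of 20 CPM, did not overlap between groups in the quantity tested, and were the 10 largest rises and falls by fold. Genes most like Eomes across members, planned, were not computed, as libraries held 3 to 18 members. Some listed or named genes are not reported here by name. Only the edgeR fits of mutants against controls in the members were tried on simulated counts, and the other tests were not. Members and lists were chosen with earlier results of these data known.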

Additional observations from a re-analysis of the deposited data

Results flagged for a closer look

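The Insm1 effect on the share of members minus the Tead1/2 effect was -0.194 percentage points, since every Insm1 mutant lay below its controls and every Tead1/2 mutant above its controls. In 42 groups of P2 libraries checked for a library far from the rest, 5 stood out, and chance alone flags about 1 in 20 groups. Otx2 was at 29.2 CPM in 1 Insm1 mutant and 19.5 to 20.8 in the others. Scg2 was at 99.9 CPM in 1 Insm1 mutant and 80.6 to 83.0 in the others. Plcb1 was at 83.9 CPM in 1 Insm1 control and 91.0 to 91.4 in the others. Eomes was at 39.3 CPM in 1 Tead1/2 mutant and 27.8 to 29.4 in the others, and Slc17a7 at 11.2 CPM in the library labelled Tead1/2 mutant 4 and 19.7 to 20.8 in the others. In that library Tead2, a targeted gene, stood at 24.9 CPM, within the 22.4 to 25.8 of the controls, against 17.5 to 19.1 in the other mutants.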

How the results depend on the processing

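Of the alternatives for comparison results, 148 values stayed within their bounds, 36 moved and 11 reversed. For single genes 571 stayed, 14 became stronger, 139 weaker and 16 reversed. The cause was not tested. Share differences in percentage points: thinned to 2000 UMIs, Insm1 was 0.0 because its 5 libraries kept 0 members, which shows no lost effect. With a marker sum of at least 2, Tead1/2 was -0.120 and both alleles together -0.304 (exact permutation p = 0.04). With no upper UMI limit, both alleles together were -0.122 and the dissections -0.0321. Members without Lmx1a gave -0.0264 for both alleles together, and per 100 GABAergic barcodes -0.308 for both alleles and -0.0165 for Tead1/2. The dissections were -0.0151 up to 10000 UMIs and -0.00457 without mixed barcodes. Leaving out 1 library gave -0.0817 to -0.0561 (Insm1), 0.0664 to 0.158 (Tead1/2), -0.00236 to 0.0432 (both alleles) and -0.000199 to 0.0454 (dissections), the lowest of the last pair without Tead1/2 mutant 3.

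Calls in members without a low-count filter were 43 (Insm1), 171 (Tead1/2), 70 (difference of effects) and 95 (dissections), with DESeq2 26 for Tead1/2 and 8 for the dissections, and for Tead1/2 0 without mixed barcodes and 0 with a sex term. Leaving out 1 library gave 0 to 0 (Insm1), 0 to 5 (Tead1/2), 0 to 1 (difference) and 0 to 1 (dissections). Against GABAergic barcodes, Insm1 calls were 16 without the filter, 2 up to 10000 UMIs and 0 without mixed barcodes, and Tead1/2 calls 11 and 0 in the latter pair. Leaving out 1 library gave 19 to 34 and 46 to 136, with 64 without Tead1/2 mutant 3. At P2 listed calls were 2 (Insm1, beside 1.35% of all genes) and 4 (Tead1/2, 6.28%) with DESeq2 and 4 (Tead1/2, 3.14%) without the filter. Leaving out 1 library gave 0 to 1 and 0 to 3, the 3 without the library labelled Tead1/2 mutant 4 (3.19% of all genes). With the replicate number as a block, 0 (Insm1, 0.343%) and 2 (Tead1/2, 1.02%) were called at P2. Same-numbered libraries correlated at -0.134 to 0.284 at P2 and -0.146 to 0.247 at P7, so the numbers were not taken to pair them. With the replicate block the members' counts at P7 stayed at 0, 1 and 0.

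Fits without mixed barcodes keep 2 Insm1 mutant members, in 1 library, and 1 Tead1/2 control member, so their 0 calls and changed signs say nothing of stability. The signs that changed (log2) in them were Lhfp -0.60, Adamts18 -9.01, 9530026P05Rik 0.037, Gpc3 1.25 and Col3a1 6.76, and up to 10000 UMIs Sgcz 7.51 and Gpc3 1.02. At P2, leaving out 1 library gave for Insm1 Eomes -0.016 to 0.12, lowest without mutant 3. For Tead1/2 it gave Eomes -0.21 to 0.045, Lmx1a -0.11 to 0.078, Calb2 -0.11 to 0.045 and Plcb4 -0.053 to 0.048. Plcb4 was 0.0028 without the filter. With 3 to 18 members per library, a share below 3 counts per library is not detectable.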
